A study of Homo sapiens with 11 samples.

Results

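The 9 genes described here encode the claudins CLDN1, CLDN3, CLDN4, CLDN7 and CLDN12, the membrane proteins occludin (OCLN) and junctional adhesion molecule A (F11R), and the zonula occludens scaffold proteins ZO-1 (TJP1) and ZO-3 (TJP3). They were taken by symbol, in a choice made with earlier results of these data known. All 9 were listed among the 28252 genes of the RT4 RNA-Seq files and 8 among the 26237 promoters of the BEAS-2B H3K4me3 files. H3K4me3 at the TJP1 promoter was not analysed here.

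The data addressed whether changes caused by nickel persist after the metal is removed. RT4, a line derived from human urinary bladder epithelium, was profiled by RNA-Seq with 2 replicates of each of 3 conditions. BEAS-2B, a human lung epithelial line, was profiled by ChIP-Seq for H3K4me3, the trimethylation of histone H3 at lysine 4 that marks active promoters, with 1 library of each condition. Untreated cells (UT) received no nickel, and nickel-exposed cells (Ni-E) were kept in 100 μM NiCl2 for 6 weeks. Nickel-washed-out cells (Ni-W) had the same exposure and were then grown without nickel, for 2 weeks in RT4. The labels give 2 weeks for both lines and more than 6 months for the BEAS-2B population that was examined. That BEAS-2B Ni-W population was expanded from a single colony, so that the effect of washout and the choice of 1 colony cannot be told apart. The ChIP material came from a pair of biological replicates per the labels, but each condition is 1 library in the files. The study's methods call the RNA-Seq replicates biological, without saying how their cultures were kept apart.

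Tight junctions seal the space between neighbouring epithelial cells near their apical surface. Claudins form the strands of the seal and set which ions pass, occludin and junctional adhesion molecules sit in or beside the strands, and the zonula occludens proteins tie these membrane proteins to the actin cytoskeleton. In urothelium they are part of the barrier that holds urine, and in airway epithelium part of the barrier against inhaled material.

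The promoters that the results turn on are shown first, from RefSeq on GRCh38.p14, 250 bases before to 50 after each listed start site, 5′ to 3′ on the gene's strand, with CpG dinucleotides in capitals. CLDN3 (chr7:73770221-73770520, minus strand) and TJP3 are shown because their transcripts were lower after nickel in RT4 cells. TJP3 has 2 entries, at chr19:3708134-3708433 and chr19:3721487-3721786 on the plus strand. CLDN4 (chr7:73830746-73831045, plus strand) and CLDN1 (chr3:190322397-190322696, minus strand) are shown because they had the highest transcript levels of the 9 genes in RT4 cells and lay far apart in H3K4me3 in BEAS-2B cells. OCLN (chr5:69492297-69492596, plus strand) is shown because its promoter is rich in CpG and had the lowest H3K4me3 of the 8 in UT cells.
CLDN1: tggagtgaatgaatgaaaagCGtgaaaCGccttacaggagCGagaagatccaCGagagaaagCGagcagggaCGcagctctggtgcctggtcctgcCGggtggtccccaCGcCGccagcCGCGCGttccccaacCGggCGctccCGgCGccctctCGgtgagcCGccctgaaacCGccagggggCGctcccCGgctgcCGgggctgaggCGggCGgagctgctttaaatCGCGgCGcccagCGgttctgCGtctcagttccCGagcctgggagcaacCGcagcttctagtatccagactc
CLDN3: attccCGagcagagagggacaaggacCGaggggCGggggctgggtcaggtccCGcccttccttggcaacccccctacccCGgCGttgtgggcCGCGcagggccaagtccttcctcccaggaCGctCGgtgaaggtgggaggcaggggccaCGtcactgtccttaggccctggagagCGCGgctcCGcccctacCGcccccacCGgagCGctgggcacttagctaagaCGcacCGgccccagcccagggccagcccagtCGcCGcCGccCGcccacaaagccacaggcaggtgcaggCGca
CLDN4: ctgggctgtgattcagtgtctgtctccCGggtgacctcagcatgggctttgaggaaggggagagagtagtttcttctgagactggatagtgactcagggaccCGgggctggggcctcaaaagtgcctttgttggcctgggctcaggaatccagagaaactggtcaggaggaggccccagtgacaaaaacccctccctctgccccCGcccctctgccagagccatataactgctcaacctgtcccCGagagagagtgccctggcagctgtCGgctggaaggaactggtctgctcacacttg
OCLN: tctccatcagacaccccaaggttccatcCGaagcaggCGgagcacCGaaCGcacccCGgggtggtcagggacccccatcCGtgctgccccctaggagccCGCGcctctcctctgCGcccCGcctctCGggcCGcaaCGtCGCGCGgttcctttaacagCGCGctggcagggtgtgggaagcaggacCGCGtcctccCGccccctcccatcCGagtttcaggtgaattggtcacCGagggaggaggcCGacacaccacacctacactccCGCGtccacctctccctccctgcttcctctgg
TJP3, first entry: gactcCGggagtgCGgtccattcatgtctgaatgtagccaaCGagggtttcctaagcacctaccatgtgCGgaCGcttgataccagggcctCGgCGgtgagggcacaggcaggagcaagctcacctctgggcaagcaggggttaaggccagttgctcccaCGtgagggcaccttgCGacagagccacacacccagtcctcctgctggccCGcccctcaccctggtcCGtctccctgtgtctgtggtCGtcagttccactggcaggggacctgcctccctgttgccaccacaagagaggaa
TJP3, second entry: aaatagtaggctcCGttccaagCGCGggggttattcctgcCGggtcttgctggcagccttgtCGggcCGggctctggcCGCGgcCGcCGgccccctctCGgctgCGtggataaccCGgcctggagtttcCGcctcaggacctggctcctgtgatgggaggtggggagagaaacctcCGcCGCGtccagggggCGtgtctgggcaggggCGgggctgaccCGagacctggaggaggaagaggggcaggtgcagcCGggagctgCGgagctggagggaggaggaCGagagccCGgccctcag

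Of the 9 genes, 8 had a RefSeq promoter entry, and F11R had none. The CLDN1 window held 31 CpG, more than 79.3% of the 35116 human promoter windows, whose median was 14. CLDN3 held 24, the first OCLN entry 26, and the TJP3 entries 12 and 24. CLDN4 held 5, and 29.6% of windows held fewer. Among the 8 genes, TJP1 spanned the range most widely, with 34, 36, 21 and 3 CpG in its 4 entries. CLDN7 had 10 and 30, and CLDN12 had 15.

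Both strands of the same promoters were searched for short motifs. GGGCGG, the GC box, was found 6 times in the CLDN3 window, where the matches at 13 and 17 from the start site overlap. Windows of CLDN1, CLDN4, CLDN7, OCLN, TJP1 and TJP3 also held it, as did 45% of all windows. TGANTCA, the AP-1 motif, was found 2 times in the CLDN4 window, at -242 and -161 from the start site, and in none of the other windows of these genes, while 7.71% of all windows held it. CACCTG, an E-box variant, was found 5 times in the second CLDN7 entry. Windows of CLDN3, OCLN, TJP1 and TJP3 also held CACCTG, as did 20.6% of all windows. It lies within the wider E-box CANNTG, which was also searched, and which 68.7% of windows held. The hypoxia-response core ACGTG was held by 21.4% of all windows and by those of CLDN3, OCLN and TJP3 among these genes. The xenobiotic-response core GCGTG was held by 36.5% of all windows and by windows of CLDN1, CLDN7, TJP1 and TJP3. For the Grainyhead-like core AACCGG these were 7.23% and windows of CLDN1, CLDN7 and OCLN. A gene is named where any of its entries held the motif, while the shares are per window. These are counts of letters in these windows, and which start sites were active in either line was not tested. CLDN3 and CLDN4 lie next to each other on chromosome 7 with their start sites 60.7 kb apart and on opposite strands, and their promoter windows differed 24 to 5 in CpG.

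The RT4 libraries held between 17075833 and 27736454 estimated counts. Replicate 2 was deeper than replicate 1 in every condition. The bladder label was checked against 10 urothelial markers, of which 9 were above 1 TPM (a transcript level scaled to transcript length and library depth) in every library. Fibroblast markers summed to 1.09 to 5.21 TPM with COL1A2 and DCN at 0, endothelial markers to 0.61 to 1.9 TPM with TIE1 at 0, and leukocyte markers to 1.83 to 3.1 TPM with CD3E at 0. The epithelial markers EPCAM, CDH1, KRT8, KRT18, KRT19, ESRP1 and ESRP2 were above 1 TPM in all 6 libraries, with sums of 7845 to 9563 TPM. In UT BEAS-2B cells, the promoters of KRT8 and KRT18 had H3K4me3 at 7.33 and 7.26 RPKM (reads scaled to promoter length and library depth). EPCAM stood at 2.21 and CDH1 at 1.02. Of the remaining epithelial markers, ESRP1 stood at 3.585, ESRP2 at 1.03 and the keratin KRT19 at 0.432. Of the fibroblast markers in the same library, COL1A1 stood highest at 8.74 RPKM, followed by PDGFRB at 6.98 and PDGFRA at 2.61. The others were low, with COL1A2 at 0.476, LUM at 0.396, DCN at 0.229 and COL3A1 at 0.167. ZEB1, a repressor of epithelial genes, stood at 10.3, with TWIST1 at 7.36, ZEB2 at 5.98, SNAI2 at 3.68 and SNAI1 at 2.04. The paper recalls earlier work in which the repressive mark H3K27me3 was lost at the ZEB1 promoter with nickel. Promoter H3K4me3 does not measure transcript levels, and BEAS-2B transcripts were not analysed here.

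In untreated RT4 cells the 9 transcripts spanned a wide range. CLDN4 was highest at 631 ± 142 TPM (SD, n = 2), followed by CLDN1 at 214 ± 53.8 and F11R at 124 ± 42.6. TJP1 (20.7 ± 9.33), TJP3 (13.8 ± 1.57), CLDN12 (11.7 ± 6.85) and OCLN (5.56 ± 2.93) formed a middle group, each overlapping its neighbour in that order in the replicate TPM values. CLDN3 stood lower at 2.75 ± 0.332 TPM and CLDN7 lowest at 0.225 ± 0.247. The replicates of CLDN4, CLDN1 and F11R did not overlap in this order, nor did those of OCLN, CLDN3 and CLDN7. OCLN, TJP1 and CLDN7 have annotated pseudogenes, so that their estimated counts are uncertain where copies share reads.

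**Figure D1:**
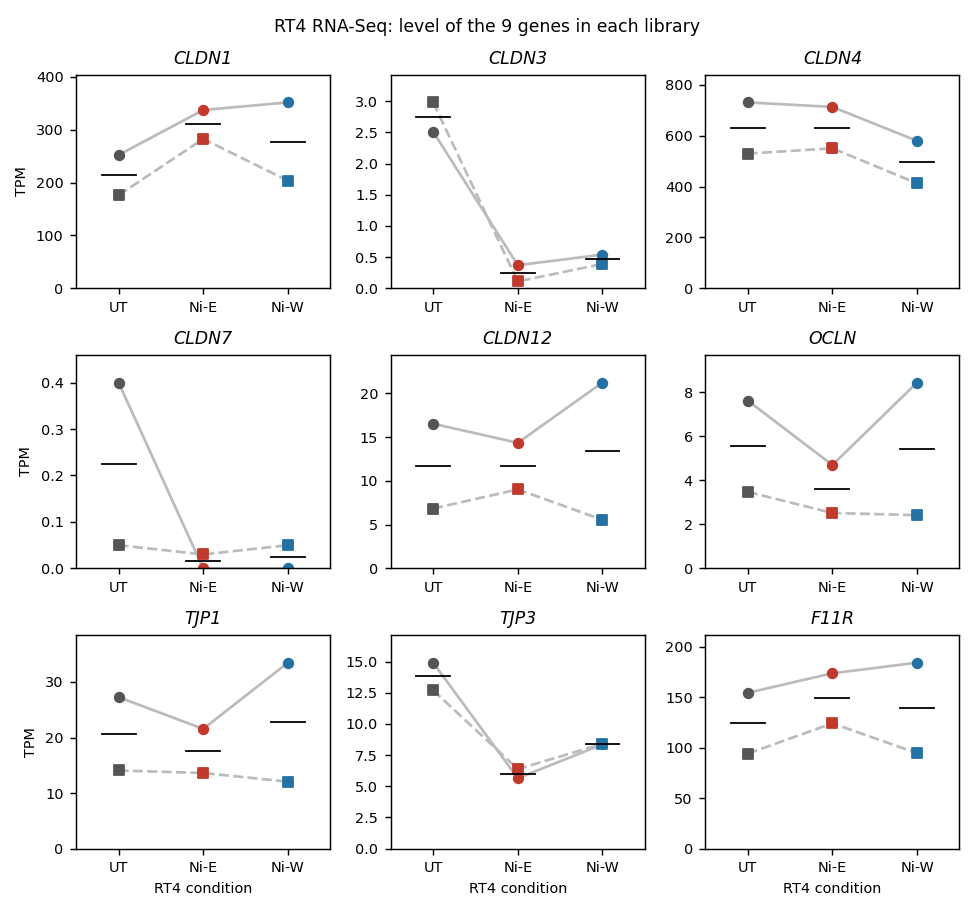
Level of each of the 9 genes in TPM on linear axes from 0, by RT4 condition, with replicate 1 as circles joined by solid lines, replicate 2 as squares joined by dashed lines, and the mean of 2 as a bar. CLDN3 and TJP3 were lower in all 4 nickel libraries than in both UT libraries, while replicate 1 stood above replicate 2 in every condition for CLDN12, OCLN, TJP1 and F11R.

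Among the 8 members tested, only CLDN3 and TJP3 were lower in nickel-exposed RT4 cells by more than 1.5-fold with groups that did not overlap. In normalised counts, groups did not overlap in 39.6% of all genes tested. The share of genes that also changed by 1.5-fold was not taken. Of CLDN3 and TJP3, only CLDN3 passed the test. With edgeR's quasi-likelihood test, a gene was called at a Benjamini-Hochberg adjusted p below 0.05 over the 14502 genes tested and a change of at least 1.5-fold. Between Ni-E and UT cells, 1 of the 8 members tested was called, lower, and 2.17% of all genes tested were called (1.45% higher and 0.710% lower). CLDN7 was too low to be tested. CLDN3 entered the test only through its UT libraries, so that a member as low as this could be tested only if it differed.

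CLDN3, a claudin of simple epithelia, was measured at 2.51 and 2.98 TPM in the UT replicates, 0.37 and 0.11 in Ni-E and 0.54 and 0.39 in Ni-W. Both UT libraries were above all 4 nickel libraries. These levels rest on few reads, with estimated counts of 27 and 53 in UT, 4 and 2 in Ni-E and 5 and 7 in Ni-W. CLDN3 fell by 3.65 on the log2 scale in Ni-E cells (SE 0.578, edgeR adjusted p = 0.0448), a 12.6-fold lower level. In Ni-W cells it was lower by the same order of groups, with a log2 fold change of -2.65 (SE 0.524), but did not pass the test (edgeR adjusted p = 0.121). The log2 difference of Ni-W to Ni-E was 1.00 (SE 0.673, edgeR adjusted p = 1.00), so that a return toward UT was not detectable at this depth. The Ni-E call was lost when any 1 of the 6 libraries was left out, with adjusted p from 0.0591 to 0.340 and log2 fold changes from -4.51 to -2.97. It was also lost, at adjusted p = 0.0514, when only the UT and Ni-E libraries were fitted.

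TJP3 encodes ZO-3, an epithelial member of the zonula occludens scaffold family. Its levels were 14.9 and 12.7 TPM in UT, 5.64 and 6.38 in Ni-E and 8.36 and 8.40 in Ni-W. The 3 groups did not overlap, with Ni-E lowest and Ni-W between. The log2 fold change was -1.20 in Ni-E cells (SE 0.238, edgeR adjusted p = 0.0786) and -0.75 in Ni-W cells (SE 0.236, adjusted p = 0.349), neither of which passed. Ni-W exceeded Ni-E by 0.45 on the log2 scale (SE 0.237, adjusted p = 1.00).

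The same-numbered libraries of the 3 conditions deviated together across genes, and a fit with the replicate number as a block gave more calls. With the block, 3 members were called lower in Ni-E, where 12.6% of all genes tested were called (7.64% higher and 5.00% lower), namely CLDN3 (log2 fold change -3.70, adjusted p = 0.00106), TJP3 (-1.20, adjusted p = 0.000402) and OCLN (-0.59, adjusted p = 0.0468). In Ni-W cells the blocked fit called CLDN3 (-2.67, adjusted p = 0.00512) and TJP3 (-0.76, adjusted p = 0.00883) lower, where 8.57% of all genes were called (5.79% higher and 2.78% lower). For Ni-W against Ni-E it called none of the 8, where 4.52% of all genes were called (2.72% higher and 1.80% lower). The block is read from a suffix in the sample titles, not from a stated culture or sequencing batch. CLDN3 entered this fit, too, only through its UT libraries, so its calls with the block are no separate support for a fall.

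**Figure D2:**
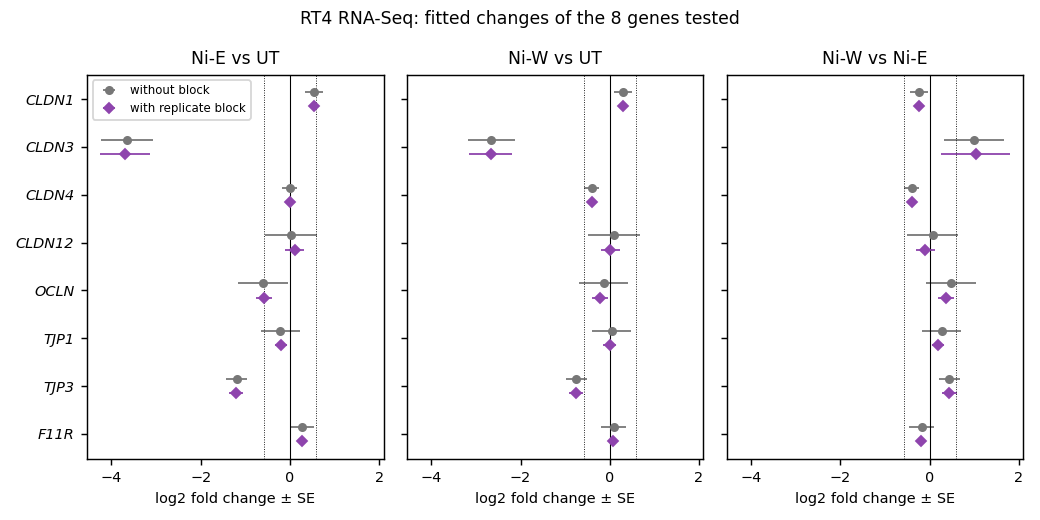
Log2 fold change with its SE for the 8 members tested, in each of the 3 RT4 comparisons, from edgeR without a block (grey circles) and with the replicate number as a block (purple diamonds). Dotted lines mark 1.5-fold; CLDN3 lies at -3.65 and -2.65 and TJP3 at -1.20 and -0.75 against UT, with shorter bars under the block for OCLN, TJP1, CLDN12 and F11R.

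OCLN, the membrane protein occludin, was measured at 7.63 and 3.48 TPM in UT, 4.70 and 2.52 in Ni-E and 8.45 and 2.42 in Ni-W. The groups overlapped in each comparison, since replicate 1 stood above replicate 2 by 2.19-fold in UT, 1.87-fold in Ni-E and 3.49-fold in Ni-W. Without the block its log2 fold change in Ni-E cells was -0.61 (SE 0.556, edgeR adjusted p = 0.891). In Ni-W cells it was -0.14 (SE 0.552).

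CLDN1 is a widely expressed claudin that tightens the barrier, and its values lay in the opposite direction to those of CLDN3. It was measured at 252 and 176 TPM in UT, 337 and 282 in Ni-E and 351 and 203 in Ni-W. Both Ni-E libraries were above both UT libraries, while the Ni-W libraries overlapped UT. The log2 fold change in Ni-E cells was 0.54 (SE 0.202), and it did not pass (edgeR adjusted p = 0.357). With the block it had an adjusted p of 0.00409 at 0.54 on the log2 scale, which is under the 1.5-fold limit. In Ni-W cells the log2 fold change was 0.30 (SE 0.202, adjusted p = 0.916).

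CLDN4, a claudin of barrier epithelia including urothelium, was measured at 731 and 529.9 TPM in UT, 713 and 551 in Ni-E and 579.9 and 413 in Ni-W. UT and Ni-E overlapped, and the Ni-E value differed from UT by -0.00 on the log2 scale (SE 0.170). In normalised counts, both Ni-W libraries were below both UT and both Ni-E libraries. The Ni-W log2 fold change was -0.40 against UT (SE 0.170, edgeR adjusted p = 0.586) and -0.40 against Ni-E (SE 0.170, adjusted p = 0.931). With the block these had adjusted p of 0.0167 and 0.0298 at changes under 1.5-fold.

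F11R, an immunoglobulin-like adhesion protein of the junction, stood at 154 and 94.1 TPM in UT, 174 and 124 in Ni-E and 184 and 94.5 in Ni-W. TJP1, the ZO-1 scaffold, stood at 27.3 and 14.1 TPM in UT, 21.6 and 13.6 in Ni-E and 33.5 and 12.0 in Ni-W. CLDN12, a claudin that lacks the usual PDZ-binding end, stood at 16.5 and 6.83 TPM in UT, 14.3 and 9.02 in Ni-E and 21.2 and 5.54 in Ni-W. For these 3 genes the groups overlapped in every comparison and the replicates of 1 condition lay further apart than the condition means. Their log2 fold changes ranged from -0.22 (TJP1, SE 0.436) to 0.27 (F11R, SE 0.275) in Ni-E and from 0.05 (TJP1, SE 0.436) to 0.09 (CLDN12, SE 0.577) in Ni-W, and none passed in either fit. For TJP1, CLDN12 and OCLN the SE without the block was 0.436 to 0.577, so that a change of 1.5-fold was not detectable at this spread.

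CLDN7 was measured at 0.40 and 0.05 TPM in UT, 0 and 0.03 in Ni-E and 0 and 0.05 in Ni-W. Its estimated counts were 5 and 1 in UT, and 0 and 1 in both Ni-E and Ni-W. With so few counts no difference was detectable at this depth.

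Over the 8 members tested, in normalised CPM (counts scaled to library depth), 3 had groups apart in Ni-E against UT, where 39.6% of all genes tested did, namely CLDN1 higher and CLDN3 and TJP3 lower. In Ni-W against UT, CLDN3, CLDN4 and TJP3 had groups apart, all lower, where 29.2% of all genes did. When Ni-W was set against Ni-E, 4 members had groups apart, CLDN3 and TJP3 higher and CLDN1 and CLDN4 lower, where 25.4% of all genes did. For CLDN1 this rests on 561 CPM in the higher Ni-W library against 562 in the lower Ni-E library, and its TPM values overlapped. The median log2 fold change of the 8 was -0.11 in Ni-E and -0.05 in Ni-W, beside -0.01 and 0.00 over all genes tested. EdgeR called 0 of the 8 in Ni-W against UT, with 2 at an unadjusted p below 0.05, where 0.600% of all genes were called (0.503% higher and 0.0965% lower). DESeq2 called 1 there, CLDN3 (adjusted p = 0.0494). The share of all genes that DESeq2 called was not taken. Between Ni-W and Ni-E, edgeR called 0 members and 0 of all 14502 genes, 0 members had an unadjusted p below 0.05, and DESeq2 called 0 members. How many of all genes had an unadjusted p below 0.05 was not counted. Both Ni-E and Ni-W were compared with the same 2 UT libraries, so the 2 comparisons are not independent.

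Some urothelial markers were lower in the same libraries as CLDN3, and others were not. Of the 10 urothelial markers, KRT20, a keratin of the superficial umbrella cells, was called lower in Ni-E (log2 fold change -6.03, edgeR adjusted p = 0.00850) and in Ni-W (-2.97, adjusted p = 0.0294), and UPK1A, a plaque protein of the same cells, was called lower in Ni-E (-2.27, adjusted p = 0.0377). The summed level of the list was 5820 to 6292 TPM in UT, 6583 to 6733 in Ni-E and 6822 to 8087 in Ni-W, most of it from KRT7, at a mean of 4581 TPM in UT, 5523 in Ni-E and 5941 in Ni-W. The median log2 fold change of the 10 was -0.62 in Ni-E, with 7 below 0, and 0.02 in Ni-W, with 5 below 0, beside -0.01 and 0.00 over all genes. With the block, 6 of the 10 were called lower in Ni-E, where 5.00% of all genes were, and 2 in Ni-W, where 2.78% were. The uroplakins did not move together. Mean UPK3B was 303 TPM in UT, 398 in Ni-E and 394 in Ni-W, while UPK2 was 343, 112 and 275. UPK1B was 96.1, 54.9 and 100, and UPK3A 83.4, 54.5 and 115, both lower than UT in Ni-E only. In these bulk libraries, fewer cells of a type and less RNA per cell cannot be told apart. The part of these markers in the CLDN3 and TJP3 values was not tested.

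The genes whose levels followed CLDN3 most closely over the 6 libraries were sought among 11141 genes with a mean of at least 5 CPM, by the distance between log2 CPM centred on each gene's mean. The nearest was KRT13, a keratin of stratified epithelia, at a distance of 1.08. It was measured at 34.5 and 37.4 TPM in UT, 5.36 and 5.86 in Ni-E and 6.45 and 6.48 in Ni-W. SRD5A2, a steroid 5-alpha reductase, followed at 1.14, and QPRT, an enzyme of NAD synthesis, at 1.17. All 3 were highest in both UT libraries, as the measure selects.

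A further 55 tight junction genes were listed by role, and 38 were tested. Their counts at an unadjusted p below 0.05 have no share of all genes beside them, since that share was not taken. In Ni-E against UT, edgeR called 0 of them, with 5 at an unadjusted p below 0.05, and their median log2 fold change was -0.14 beside -0.01 for all genes. With the block, 5 of the 38 were called, AMOTL1 and AMOTL2 higher and CLDN23, ESAM and ILDR1 lower, near the 12.6% of all genes called in that fit. DESeq2 called ESAM and ILDR1, and its share over all genes was not taken. For the washed-out cells against UT, edgeR called 0, with 4 at an unadjusted p below 0.05, DESeq2 also called 0, and the block called AMOTL1 and AMOTL2 higher and PARD3B lower, 3 of 38 where 8.57% of all genes were called. Between Ni-W and Ni-E, edgeR and DESeq2 called 0 and the block called CLDN23 higher, 1 of 38 where 4.52% of all genes were called, with 3 at an unadjusted p below 0.05 without the block.

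Among the proteins of tricellular and adhesive contacts, ILDR1, the angulin-2 receptor that marks corners where 3 cells meet, was measured at 15.2 and 10.5 TPM in UT, 6.66 and 5.68 in Ni-E and 10.9 and 7.73 in Ni-W. Its Ni-E libraries were below both UT libraries, with a log2 fold change of -1.06 (SE 0.208, edgeR adjusted p = 0.0748). ESAM, an adhesion molecule related to F11R, was measured at 6.97 and 5.08 TPM in UT, 1.05 and 2.47 in Ni-E and 4.35 and 4.02 in Ni-W. CLDN23 stood at 17.5 and 9.27 TPM in UT, 8.50 and 6.43 in Ni-E and 21.6 and 11.8 in Ni-W. For all 3, both Ni-E libraries were below both UT and both Ni-W libraries. In normalised CPM, 13 of the 38 genes tested had groups apart in Ni-E against UT, where 39.6% of all genes did. In Ni-W against Ni-E, 8 of the 38 did, beside 25.4% of all genes.

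Among the scaffold proteins, the angiomotin-like genes lay in the opposite direction. AMOTL2 was measured at 36.7 and 22.8 TPM in UT, 62.0 and 42.5 in Ni-E and 64.7 and 34.6 in Ni-W, and AMOTL1 at 9.28 and 4.80, 15.8 and 9.51, and 19.0 and 7.97. Ni-E and UT did not overlap for either gene in normalised counts, as for 39.6% of all genes tested. Their log2 fold changes in Ni-E were 0.82 (SE 0.269) and 0.85 (SE 0.397), past the test with the block (adjusted p = 0.000262 and 0.000666) and short of it without (0.274 and 0.514).

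Of 13 transcription factors known to act on epithelial junction genes, 10 were tested. SNAI2, which encodes the E-box repressor Slug, was called higher in Ni-E, where 1.45% of all genes tested were called higher. SNAI2 was measured at 15.1 and 10.9 TPM in UT, 30.3 and 26.7 in Ni-E and 32.5 and 22.2 in Ni-W. All 4 nickel libraries were above both UT libraries. In normalised CPM, 5 of the 10 factors had groups apart in Ni-E against UT, where 39.6% of all genes did. In Ni-W against UT, 5 of the 10 did, beside 29.2% of all genes. Its log2 fold change was 1.13 in Ni-E (SE 0.183, edgeR adjusted p = 0.0460) and 1.01 in Ni-W (SE 0.183, adjusted p = 0.1002). With the block, SNAI2 was called higher in both (adjusted p = 0.000181 and 0.000599), GRHL1 higher in both, ELF5 lower in both and GRHL3 lower in Ni-E. That fit called 12.6% of all genes in Ni-E (7.64% higher and 5.00% lower) and 8.57% in Ni-W (5.79% higher and 2.78% lower). Whether any of these factors acts on the 9 genes was not tested.

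**Figure D3:**
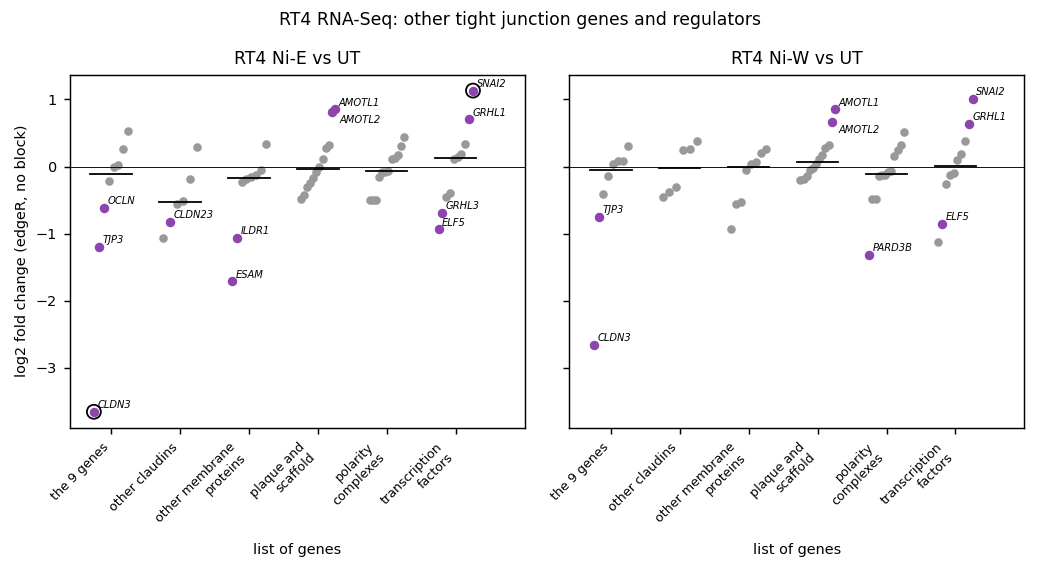
Log2 fold change from edgeR without a block for each gene tested, by list, in RT4 Ni-E (left) and Ni-W (right) against UT, with list medians as bars. Purple marks genes called with the replicate block and a ring those called without it, which among these lists were CLDN3 and SNAI2 in Ni-E.

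In BEAS-2B cells the 8 promoters separated by level of H3K4me3 within 2 kb of the start site. The depth recovered from the RPKM steps was 28385720, 37493950 and 29933510 reads in UT, Ni-E and Ni-W, so that a floor of 3 reads corresponds to 0.0264, 0.02 and 0.0251 RPKM. CLDN1 had the highest level in UT cells at 11.9 RPKM (95% Wilson interval 11.3 to 12.6, from 1351 reads), higher than 96.3% of promoters. F11R followed at 8.02, CLDN12 at 4.19, CLDN7 at 2.28 and CLDN3 at 2.08 RPKM. The intervals of CLDN7 (2.02 to 2.58) and CLDN3 (1.83 to 2.36) overlapped, and the others did not.

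TJP3, CLDN4 and OCLN were low. TJP3 was measured at 0.361 RPKM in UT (0.266 to 0.490), CLDN4 at 0.247 (0.171 to 0.356) and OCLN at 0.079 (0.0417 to 0.151, from 9 reads). The intervals of TJP3 and CLDN4 overlapped, and OCLN lay below both. CLDN4, with 5 CpG in its window, and OCLN, with 26, were thus both far under the UT median of 1.57 RPKM. The start site behind each promoter value is not given in the sources used here, so that a value may belong to another start site than the sequence shown, and a near-identical pseudogene copy of OCLN can also withhold reads. The part of either was not tested. In RT4 cells CLDN4 was the highest transcript of the 9, and the lines differ, so that no comparison between transcript and promoter was made.

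**Figure D4:**
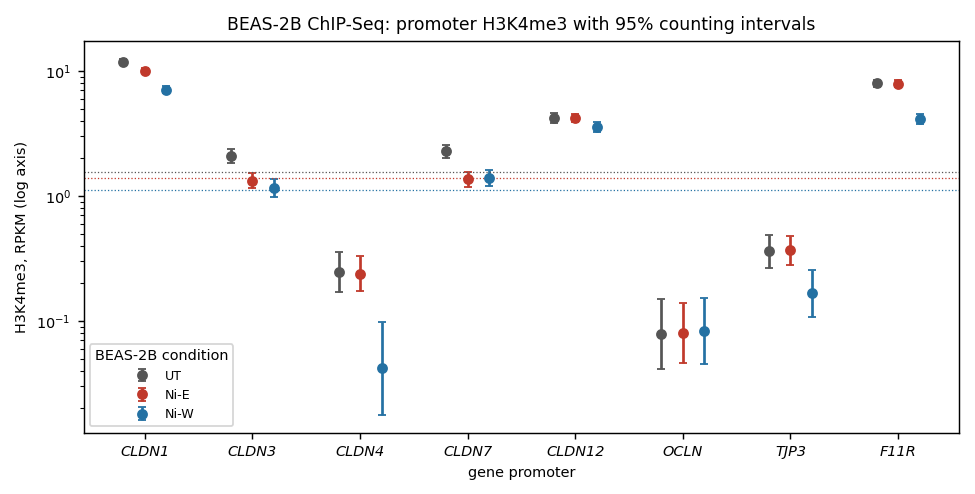
Promoter H3K4me3 in RPKM on a log axis for the 8 promoters in UT, Ni-E and Ni-W BEAS-2B cells, 1 library each, with 95% Wilson intervals from the reads and the median of all promoters of each library as a dotted line of the same colour. CLDN1, F11R and CLDN12 lay above all 3 medians, and TJP3, CLDN4 and OCLN below them.

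With 1 library a condition there is no replicate check, and the ratios below compare libraries with intervals for counting error only. Levels were divided by the library median, and a promoter was counted where it had at least 1 RPKM in either library, which 5 of the 8 members had. In Ni-E against UT, 0 of the 5 were past 1.5-fold, where 1.41% of counted promoters were (0.847% higher and 0.567% lower). The lowest was CLDN7, at 2.28 RPKM in UT and 1.36 in Ni-E, with a scaled ratio of 0.674 (95% interval 0.558 to 0.813), lower than all but 0.596% of counted promoters. CLDN3 was next, at 2.08 and 1.33 RPKM, with a ratio of 0.722 (0.595 to 0.875), lower than all but 1.11%. Both were lower under each scaling tried, and past 1.5-fold without median scaling, at 0.596 and 0.638, where 1.52% of counted promoters were lower by as much and 0.395% higher. CLDN1 (0.959), F11R (1.12) and CLDN12 (1.13) lay nearer to 1, and F11R lay just under 1 (0.991) without scaling.

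In Ni-W cells, H3K4me3 was lower over most promoters in the RPKM as deposited, with a median log2 ratio to UT of -0.81 over counted promoters, or -0.32 after division by the library median. Against this shift, CLDN1 went from 11.9 RPKM in UT and 10.1 in Ni-E to 7.11 in Ni-W, and F11R from 8.02 and 7.95 to 4.15. CLDN3 stood at 1.16 RPKM in Ni-W, CLDN7 at 1.40 and CLDN12 at 3.57. In Ni-W against UT, 0 of the 5 counted members were past 1.5-fold after scaling, where 22.8% of counted promoters were (4.36% higher and 18.4% lower). In the RPKM as deposited, CLDN1, CLDN3, CLDN7 and F11R were past 1.5-fold lower, as were 71.2% of counted promoters, while 1.86% were higher. CLDN3 had a scaled ratio of 0.783 (0.630 to 0.969) and was lower under each scaling tried, with log2 ratios from -0.84 to -0.05. F11R had a scaled ratio of 0.725 (0.649 to 0.810) and was lower under each scaling tried. CLDN1 had 0.837 (0.767 to 0.913) and CLDN7 0.857 (0.701 to 1.05), and both turned higher when the median was taken over promoters of at least 1 RPKM in all libraries. CLDN12 had 1.19 (1.04 to 1.36) and turned lower, to 0.851, without scaling. Of the counted promoters, 32.9% had a lower scaled ratio than F11R and 46.4% a lower one than CLDN3. For CLDN1, CLDN7 and CLDN12 these shares were 56.9%, 60.1% and 89.6%.

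Between Ni-W and Ni-E, F11R was the only counted member past 1.5-fold, with a scaled ratio of 0.647 (0.582 to 0.719), where 34.6% of counted promoters were (4.04% higher and 30.5% lower). As deposited its ratio was 0.522, where 64.2% of counted promoters were lower by over 1.5-fold and 2.26% higher. It was lower under each scaling tried, with log2 ratios from -0.94 to -0.20. CLDN3 (1.08), CLDN7 (1.27) and CLDN12 (1.05) lay above 1 and CLDN1 (0.873) below, while the median log2 ratio of counted promoters was -0.42. Without median scaling CLDN3 and CLDN12 were below 1, at 0.875 and 0.850.

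The low promoters were not counted, but CLDN4 had the ratio furthest from 1 of the 8. CLDN4 had 28 reads in UT, 36 in Ni-E and 5 in Ni-W, or 0.247, 0.240 and 0.042 RPKM. Its scaled ratio in Ni-W to UT was 0.237 (0.0715 to 0.622), and 0.169 without scaling. TJP3 had 41, 55 and 20 reads, or 0.361, 0.367 and 0.167 RPKM, with a scaled ratio in Ni-W to UT of 0.648 (0.360 to 1.13). OCLN had 9, 12 and 10 reads, and its scaled ratios had intervals that spanned 1. These levels lie among promoters with little H3K4me3, and whether they stand above the input libraries was not tested.

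**Figure D5:**
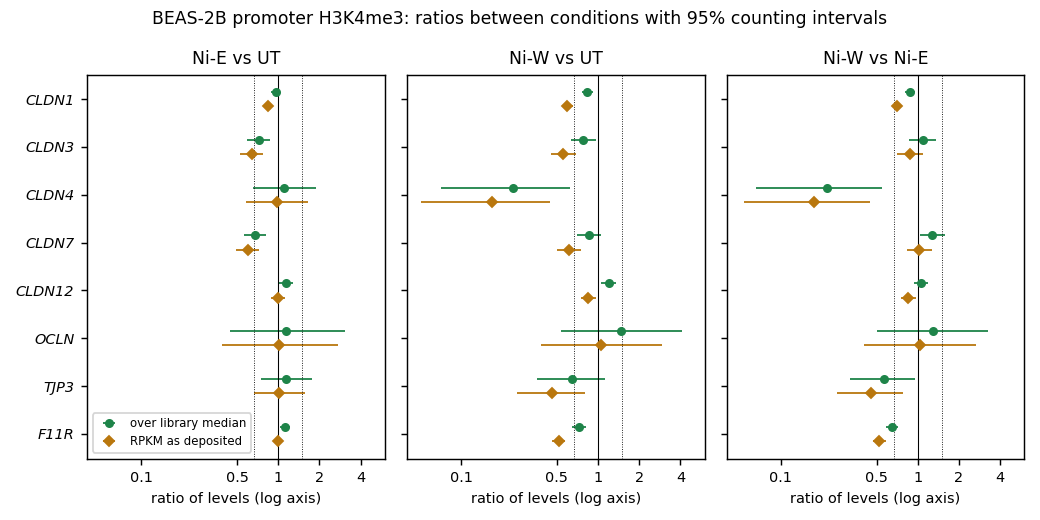
Ratio of promoter H3K4me3 between BEAS-2B conditions on a log axis, over the library median (green circles) and as deposited (orange diamonds), with 95% exact intervals for counting error and dotted lines at 1.5-fold either way. CLDN7 and CLDN3 lie at 0.674 and 0.722 in Ni-E to UT, CLDN4 at 0.237 in Ni-W to UT, and the deposited ratios in Ni-W lie below the scaled ones for each gene.

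The other 55 tight junction genes gave 34 counted promoters in Ni-E against UT, none past 1.5-fold. In Ni-W against UT, 8 of 34 were past it, where 22.8% of all counted promoters were, with CLDN16, PARD3B and MPP5 higher and MAGI1, MAGI2, AMOT, PARD6A and MPDZ lower. Between Ni-W and Ni-E, 13 of 33 were past it, 3 higher and 10 lower, where 34.6% of all were. Among the factors, the SNAI2 promoter had a scaled ratio of 1.24 (1.10 to 1.41) in Ni-E and 1.22 (1.06 to 1.41) in Ni-W against UT, the latter turning to 0.871 without scaling. ELF3, an epithelial ETS factor, was the only one of the 8 factors counted past 1.5-fold in Ni-E, at 0.437 (0.375 to 0.508), and stood at 0.984 in Ni-W against UT. In Ni-W against UT, 2 of the 9 counted were past it, KLF5 higher at 2.55 (1.90 to 3.44) and GRHL1 lower at 0.584 (0.500 to 0.680).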

How the data were processed

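RNA-Seq libraries were made from 6 RT4 samples and H3K4me3 ChIP-Seq libraries from 3 BEAS-2B samples. Per the labels, the files of the series used GRCh38 (hg38), and the submitters' processing notes name BWA, SAMtools, bedtools, STAR and DESeq2. The study's methods describe RNA-Seq alignment to hg19, and which build lies behind the estimated counts is not given in the sources used here. The authors ran RSEM on the RNA-Seq reads and deposited its estimated counts, with TPM and FPKM of each gene. FPKM was read but entered no test. For ChIP-Seq the authors deposited RPKM per promoter, 2 kb on each side of the start site. The input libraries were not used here.

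Estimated counts (97.94% whole) were rounded and tested with edgeR 4.0.16 in R 4.3.3, with TMM factors, the filterByExpr filter and 1 model of 3 groups without a block, leaving 3 residual degrees of freedom. The SE was derived from the F statistic. Same-numbered libraries deviated together (correlation of the replicate differences over 14502 genes 0.794 for UT and Ni-E, 0.878 for UT and Ni-W and 0.791 for Ni-E and Ni-W), and the pairing rests on the title suffix alone. ChIP reads were recovered from the RPKM steps (99.992% to 100% whole within 0.0005 RPKM). Levels have 95% Wilson intervals and ratios exact conditional intervals, and without molecular identifiers both cover counting error only. No condition was tested in ChIP-Seq.

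The 9 genes, the lists and the tests were chosen with earlier results of these data known. All 9 genes were described. Of the other lists, genes called in an RT4 comparison were named. Some genes called only with the block and some promoters past 1.5-fold were also named, chosen after their values were seen. The 3 genes nearest to the member called with the smallest adjusted p were given. Alternatives were RLE size factors, DESeq2 1.42.0, other filters, limma 3.58.1 on log2(TPM + 1) and log2(TPM + 0.1) where the mean reached 1 TPM, the replicate block, the 2 groups alone, each library left out, and other scalings, minimum levels and folds for ChIP-Seq. Scripts were tested on simulated data. At the spread of the real libraries, the RNA-Seq fit without a block recovered fewer genes there than first required. That requirement was replaced after the outcome was seen. A gene not called without the block may therefore still differ. Positions are from GENCODE 44 and RefSeq.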

Additional observations from a re-analysis of the deposited data

How the results depend on the processing

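The RT4 counts of calls moved with the settings. In Ni-E against UT, 1 member was called, while DESeq2 called 2 (CLDN3 and TJP3), and 0 were called with at least 10 counts in every sample, which removes CLDN3, with limma on log2(TPM + 0.1), or with only the 2 groups. Leaving out each library gave 0 members and 0 other tight junction genes called in all 3 RT4 comparisons. Of the other tight junction genes, DESeq2 called 2 in Ni-E. In Ni-W against UT, DESeq2 called 1 member. With the replicate block, which rests on the pairing by title suffix, 3 members and 5 other tight junction genes were called in Ni-E against UT, 2 and 3 in Ni-W against UT, and 0 and 1 in Ni-W against Ni-E, where 12.6%, 8.57% and 4.52% of all genes were called, and OCLN, TJP3 and CLDN3 were the members whose calls it changed. The share of all genes called was taken only for edgeR with and without the block. The counts under the other settings, and with a library left out, therefore cannot be set beside such a share. The cause of these differences was not tested.

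Small changes turned direction. CLDN4 in Ni-E turned to 0.00993 with limma on log2(TPM + 1) and 0.00995 on log2(TPM + 0.1), TJP1 in Ni-W to -0.00473 with the block, and CLDN12 in Ni-W against Ni-E to -0.0405, -0.0656 and -0.0940 with limma on log2(TPM + 1), limma on log2(TPM + 0.1) and the block. With each library left out, log2 fold changes in Ni-E against UT ranged from -0.40 to 0.61 for CLDN12, -0.11 to 0.10 for CLDN4 and -0.53 to 0.17 for TJP1. In Ni-W against UT they ranged from -0.88 to 0.68 for CLDN12, -0.23 to 0.35 for F11R, -1.002 to 0.41 for OCLN and -0.61 to 0.50 for TJP1. In Ni-W against Ni-E they ranged from -0.89 to 0.65 for CLDN12, -0.49 to 0.0842 for F11R, -0.38 to 1.02 for OCLN and -0.37 to 0.72 for TJP1. CLDN3, TJP3 and CLDN1 kept their direction in all 3 comparisons with each library left out.

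For H3K4me3, the number of members past 1.5-fold in Ni-E against UT went from 0 to 2 (CLDN3 and CLDN7) without median scaling or with the median over promoters of at least 1 RPKM in all libraries. In Ni-W against UT it went from 0 to 4 without scaling and to 2 without a minimum level. In Ni-W against Ni-E it went from 1 to 0 under quantile normalization, with log2 of the scaled RPKM + 1 or at 2-fold, and to 3 without a minimum level. The cause was not tested.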
